A study of Mus musculus with 4 samples.

Results

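Among the nuclei of mouse hippocampus counted in this study, a small set carried UMIs of genes that are best known from granule neurons of the cerebellum, not of the hippocampus. A nucleus was taken as Fat2 Gabra6 granule-like if the summed UMIs (unique transcripts) of *Fat2*, *Gabra6*, *Cnpy1*, *Zic1* and *Svep1* were at least 3, with at least 2 of these 5 genes found. At most 1 UMI of *Gad1* and *Gad2* was allowed, since these genes mark inhibitory neurons, and at most 20% mitochondrial UMIs. The rule found 71 nuclei of 56834. The nuclei were thus chosen by the measured UMIs of these genes, so their levels are given below as a description with no test.

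The nuclei came from 8 conditions, each 1 pool of the hippocampi of 3 male mice. Stress was repeated social defeat (RSD), in which a CD-1 aggressor was put into the home cage for 2 h a night on 6 nights, and nuclei were taken 14 h after it; controls were left undisturbed. Stress-nIL-1R1-/-, Con-nIL-1R1-/-, Con-IL-1R1+/+ and Stress-IL-1R1+/+ came from lines bred in house, in which Cre under *Vglut2* deletes the IL-1 receptor 1 in glutamatergic neurons (nIL-1R1-/-) or Cre is absent (IL-1R1+/+). The labels call the remaining pools Stress-PLX5622, Control-PLX5622, Stress-Vehicle and Control-Vehicle; C57BL/6 mice for the diets were bought at 5 to 7 weeks and fed AIN-76A chow with or without PLX5622 (1200 mg/kg), a CSF1R antagonist that depletes microglia, from 7 days before RSD. All pools were barcoded together by split-pool rounds in 4 sublibraries, each of which holds nuclei of every pool, so that sublibraries are technical splits and not replicates of a condition. Each pool had its own first-round wells, so that no barcode could be shared between pools (0 of 57350 were).

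Granule neurons of the cerebellum are small excitatory neurons that receive mossy fibres and send parallel fibres to Purkinje cells. Their GABA-A receptors carry the α6 subunit, encoded by *Gabra6*, a gene otherwise used by few neurons of the adult brain. Granule neurons of the dentate gyrus share the name, the small size and the glutamatergic output, but they arise in the forebrain and depend on the transcription factor *Prox1*. They are the comparison used here: 3861 nuclei met a rule of the same form on *Prox1*, *C1ql2*, *Dsp*, *Trpc6* and *Lct* and were not granule-like by the rule above.

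*Gabra6* (ENSMUSG00000020428) lies on the minus strand of chr11:42197264-42211910, and *Fat2* (ENSMUSG00000055333) on the minus strand of chr11:55141435-55227483 (mm39, GENCODE vM39). The stretch before the start of *Gabra6* is shown because nuclear factor I (NFI) proteins are known to act on this promoter in cerebellar granule neurons. Capitals mark the 1 match to an NFI half-site (TTGGC, or GCCAA on the other strand), which starts 49 bases before the RefSeq start. The 250 bases are RefSeq sequence of the minus strand (chr11:42211900-42212149, mm39), and the last of them fall inside the slightly longer first exon of GENCODE.
Gabra6: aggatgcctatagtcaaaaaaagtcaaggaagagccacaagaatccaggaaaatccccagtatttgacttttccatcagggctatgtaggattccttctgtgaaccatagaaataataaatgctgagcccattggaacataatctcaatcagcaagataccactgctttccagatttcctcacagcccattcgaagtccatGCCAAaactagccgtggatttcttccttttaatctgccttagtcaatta
All 6 marker genes had a RefSeq promoter in the table used here. In the same 250 bases *Zic1* had 2 half-sites, and *Fat2*, *Cnpy1*, *Svep1* and *Grin2c* had 0. Of 32851 mouse promoters 41.5% hold at least 1, so a match of this length is common and describes the letters only. The NFI genes themselves were read in the granule-like nuclei at 358 (*Nfia*), 457 (*Nfib*) and 210.3 (*Nfix*) CPM (UMIs of the class scaled to a total of 1000000), against 507, 593 and 253 in dentate granule nuclei. None of these genes passed the test described below (edgeR adjusted p = 0.195, 0.36 and 0.901).

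*Fat2*, a large protocadherin of parallel fibres, had 136 UMIs and was found in 60 of the 71 nuclei. *Gabra6* had 72 UMIs in 45 nuclei, and 70 of the 71 nuclei had *Fat2* or *Gabra6*. *Cnpy1* had 58 UMIs in 41 nuclei, *Svep1*, an extracellular matrix gene, 56 in 32, and *Zic1*, a zinc finger factor of the hindbrain, 38 in 30. The nuclei hold 32.8% of all *Fat2* UMIs of the series, 29.7% of *Cnpy1*, 19.8% of *Gabra6*, 15.1% of *Svep1* and 10.6% of *Zic1*, so that all 5 genes were mostly read elsewhere. 25 nuclei had 2 of the 5 genes, 30 had 3, 12 had 4 and 4 had all 5. *Grin2c*, the GluN2C subunit of NMDA receptors and a marker given with the rule but not used in it, had 48 UMIs in 27 nuclei.

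Many nuclei lay close to the threshold. The sum was exactly 3 in 26 nuclei, 4 in 16 and 5 or more in 29, with 16 the highest. Just outside were 46 nuclei with a sum of 2 over 2 genes and 24 with at least 3 UMIs of 1 gene alone. Nuclei just inside (sum of 3) had *Chn2* at 334 and *Glis3* at 138 CPM, and those just outside (sum of 2) had them at 219 and 319.7 CPM. *Chn2* is a gene of granule neurons of the cerebellum and *Glis3* one of the dentate gyrus. Other genes ran the opposite way, with the cerebellar gene *Grm4* at 175 inside and 266 outside and the dentate gene *Stxbp6* at 199.5 and 157. The nuclei with at least 3 UMIs of 1 gene alone had *Chn2* at 425 and *Glis3* at 121, so the threshold did not part the nuclei cleanly by these genes. A further 13 nuclei met the rule on the 5 genes but had more than 1 UMI of *Gad1* and *Gad2*, and 10 of them were in Con-nIL-1R1-/-, 2 in Con-IL-1R1+/+ and 1 in Stress-nIL-1R1-/-. Their median depth was 46622 UMIs.

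The granule-like nuclei were found in 4 of the 8 pools. Stress-nIL-1R1-/- held 35 of them (49.3%), a share of 0.579% of its 6045 nuclei (0.404 to 0.804, exact 95% interval). Con-IL-1R1+/+ held 18 of 7554 (0.238%, 0.141 to 0.376) and Con-nIL-1R1-/- 15 of 6511 (0.230%, 0.129 to 0.380). The latter shares overlap in their intervals, and that of Stress-nIL-1R1-/- lies above both. These exact intervals (Clopper-Pearson) cover counting error only, and nothing was tested between single pools. Control-Vehicle had 3 nuclei of 8474 (0.0354%).

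The sum of the 3 nuclei of Control-Vehicle, led by 1 nucleus of 29362 UMIs, went against the name. It held 1 UMI of *Chn2*, a gene of cerebellar granule neurons. *Tcf7l2*, *Prkcd* and *Lef1*, genes of thalamic neurons, were at 725, 650.2 and 325 CPM there, against 67.5, 43.9 and 39.2 over all 71 nuclei. These 3 nuclei held 29 of the 43 *Tcf7l2* UMIs and 26 of the 28 *Prkcd* UMIs of the whole set. The nucleus of 976 UMIs among them had *Chn2*, *Grm4* and *Lhfp* together at 41.0 per 10000 UMIs, against 6.81 and 3.11 in the other two. They do not enter the tests of genes below, which use pools with at least 10 of the nuclei.

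No such nucleus was found in the other 4 pools. In Stress-IL-1R1+/+, 0 of 5858 nuclei allow a share of up to 0.0512% (3 counts of the total; the exact two-sided interval reaches 0.0630%). In Stress-Vehicle 0 of 7332 allow up to 0.0409%, in Control-PLX5622 0 of 7382 up to 0.0406%, and in Stress-PLX5622 0 of 7678 up to 0.0391%. Depth differed between these pools, and its part in the zeros was not tested. The median nucleus had 598 UMIs in Control-PLX5622 and 628 in Stress-PLX5622, but 3218.5 in Stress-IL-1R1+/+, more than the 2580 of Stress-nIL-1R1-/- and the 3098.5 of Con-IL-1R1+/+. The nuclei of Stress-Vehicle had a median of 1325.5, those of Control-Vehicle 2563 and those of Con-nIL-1R1-/- 5012.

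**Figure D1:**
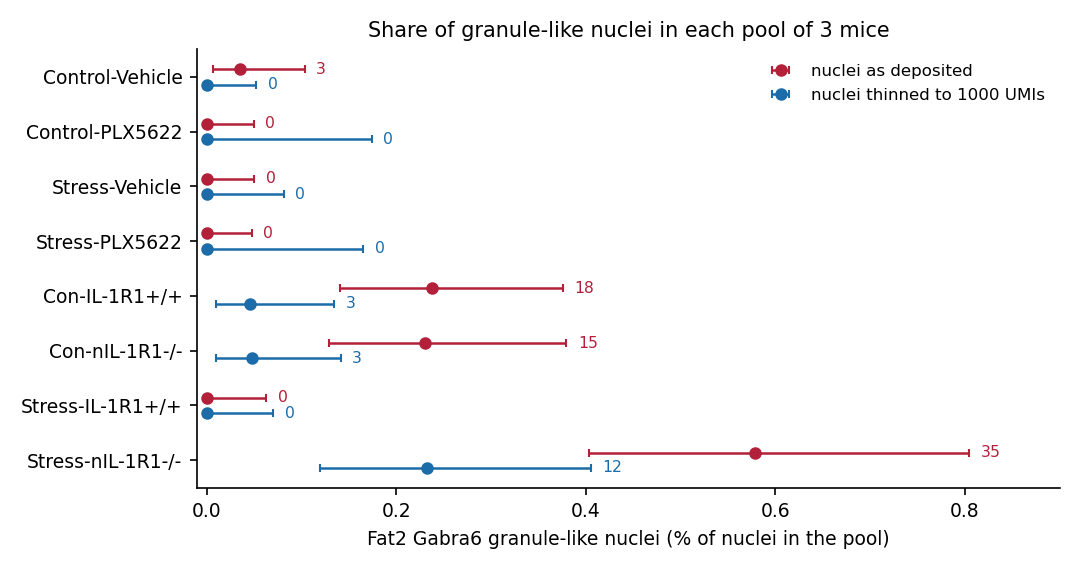
Share of Fat2 Gabra6 granule-like nuclei (x axis, % of nuclei) in each of the 8 pools, as deposited and after each nucleus was thinned to 1000 UMIs; bars are exact 95% intervals and numbers are nuclei found. Stress-nIL-1R1-/- is highest in both (0.579% and 0.232%); 4 pools have none as deposited and 5 after thinning.

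Thinning every nucleus to 1000 UMIs and leaving out shallower ones puts the pools on 1 depth. The rule then found 18 nuclei of 38997: 12 in Stress-nIL-1R1-/- (0.232%, 0.120 to 0.406), 3 in Con-IL-1R1+/+ (0.0460%) and 3 in Con-nIL-1R1-/- (0.0484%). Stress-IL-1R1+/+ still had 0 of 5224, which allows up to 0.0574%. Stress-Vehicle had 0 of 4525 and Control-Vehicle 0 of 7026, and the PLX5622 pools kept only 2113 (control) and 2230 (stress) nuclei at this depth.

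RSD was compared with control over 4 pairs of pools. Stress minus control was -0.238 percentage points in IL-1R1+/+, 0.349 in nIL-1R1-/-, -0.0354 on vehicle and 0 on PLX5622. The mean was 0.0187 (SD 0.244, n = 4 pairs), with p = 1 in an exact two-sided sign-flip permutation, which cannot reach 0.05 with 4 pairs. The pairs of the 2 genotypes thus went opposite ways. *Il1r1* in dentate granule nuclei, the check on the genotype, was at 38.3 (Con-IL-1R1+/+) and 21.1 CPM (Stress-IL-1R1+/+), against 5.25 (Stress-nIL-1R1-/-) and 8.18 (Con-nIL-1R1-/-). In the granule-like nuclei *Il1r1* had 3 UMIs in all, 0 in Stress-nIL-1R1-/-, 1 in Con-nIL-1R1-/- and 2 in Con-IL-1R1+/+, too few to compare genotypes.

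Within a pool the nuclei were not confined to 1 first-round well, of which each pool had 6. They were in 5 wells of Stress-nIL-1R1-/- (at most 10 in a well), in all 6 of Con-nIL-1R1-/- (at most 5), in 4 of Con-IL-1R1+/+ (at most 6) and in 3 of Control-Vehicle. Every sublibrary held some: 23, 7, 6 and 35 nuclei in sublibraries 1 to 4, or 0.149%, 0.0517%, 0.0437% and 0.247%. Depth moved with these shares, at median UMIs of 2484, 1388, 1131 and 3126, and its part in them was not tested. UMIs of the 5 genes outside the granule-like nuclei stood at 9.33 CPM in Stress-nIL-1R1-/-, 4.48 in Stress-IL-1R1+/+, 5.08 in Con-nIL-1R1-/-, 6.33 in Con-IL-1R1+/+ and 5.20 in Control-Vehicle. They were at 12.3 in Control-PLX5622, 11.8 in Stress-PLX5622 and 4.88 in Stress-Vehicle. The granule-like nuclei themselves had 565 CPM.

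Dissection, animal and pool cannot be told apart here, since each condition is 1 pool. Markers of other cerebellar cells were read in each whole pool beside the shares. *Pcp2*, a Purkinje cell gene, had 10 UMIs in Con-nIL-1R1-/- (0.172 CPM), 8 in Con-IL-1R1+/+ (0.212), 2 in Stress-nIL-1R1-/- (0.0815) and 7 in Stress-IL-1R1+/+ (0.249). The Purkinje cell genes *Ppp1r17* and *Car8* were highest in Con-nIL-1R1-/-, at 0.207 and 4.39 CPM, against 0.0408 and 1.35 in Stress-nIL-1R1-/- and 0.0356 and 1.96 in Stress-IL-1R1+/+. *Cbln3*, made chiefly by cerebellar granule neurons, had 9, 11, 12 and 3 UMIs in the 4 pools in the order given for *Pcp2*, or 0.155, 0.291, 0.489 and 0.107 CPM. In the pools of the diets it had 6 UMIs in Control-Vehicle (0.155 CPM) and 2 in each other pool, at 0.261 CPM in Control-PLX5622, 0.132 in Stress-Vehicle and 0.265 in Stress-PLX5622. *Eomes*, which marks unipolar brush cells but also other neurons, had 5, 4, 6 and 0 (0.0861, 0.106, 0.245 and 0 CPM). *Tfap2b*, found in cerebellar interneurons and in the midbrain, had 234 UMIs in Con-IL-1R1+/+ against 14 in Stress-nIL-1R1-/-, 16 in Con-nIL-1R1-/- and 2 in Stress-IL-1R1+/+. *Cbln3* and *Eomes* were thus highest in the pool with most granule-like nuclei, the Purkinje cell genes and *Tfap2b* in others. Counts of *Cbln3* and *Eomes* are small and include the granule-like nuclei. These held 4 of the 12 *Cbln3* and 1 of the 6 *Eomes* UMIs in Stress-nIL-1R1-/-, and 3 of 11 and 2 of 4 in Con-IL-1R1+/+. What these cells have to do with the shares was not tested.

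Granule-like nuclei were compared with dentate granule nuclei in the 3 pools with at least 10 of them (68 against 2100 nuclei). UMIs were summed for each class and pool and tested with edgeR, with the pool as a block. The 12 genes of both rules, with *Gad1* and *Gad2*, and *Grin2c* were not tested. Of 8826 genes, 337 (3.82%) passed an adjusted p of 0.05: 195 (2.21%) were higher and 142 (1.61%) lower in granule-like nuclei. Without the Con-IL-1R1+/+ pool edgeR gave 18 higher and 0 lower, with 415 lower at an unadjusted p under 0.05. Leaving out sublibrary 1 put Con-IL-1R1+/+ below 10 granule-like nuclei, and the fit on the remaining 2 pools gave 73 and 4. Leaving out sublibrary 4 removed Con-nIL-1R1-/- in the same way and gave 89 and 34, so that the sublibrary and the pool cannot be told apart in these fits. The filter on low counts lay at 7.99 CPM, and 21 of the 195 higher genes were under it in every dentate sum while 4 of the 142 lower genes were under it in every granule-like sum; such genes could enter the test only through the class where they are high. *Chn2*, *Reln*, *Etv1* and *Cadps2* were higher and *Glis3*, *Dock10*, *Stxbp6* and *Rfx3* lower than in the dentate nuclei in this fit. The dentate nuclei were themselves picked by dentate genes. Against all other nuclei that carry *Syt1* and at most 1 UMI of *Gad1* and *Gad2*, 0 of 9 dentate genes tested passed (edgeR). Levels below are CPM of the class in Con-IL-1R1+/+, Con-nIL-1R1-/- and Stress-nIL-1R1-/-, in this order.

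*Chn2*, which encodes the Rac inactivator β2-chimaerin, had the smallest p. It was at 517, 334 and 1235 in granule-like and 25.6, 33.9 and 39.4 in dentate granule nuclei, a log2 fold change of 4.18 (SE 0.27, n = 3 pools, edgeR adjusted p = 1.31e-06). Of the granule-like sums that of Stress-nIL-1R1-/- was the highest. *Grm4* encodes mGluR4, a glutamate receptor of parallel fibre endings, and was at 227, 251 and 1096 against 29.8, 31.5 and 39.0 (log2 fold change 3.60, SE 0.31, edgeR adjusted p = 1.9e-05). *Astn2*, which takes part in the migration of neurons along glia, was at 1176, 910 and 1403 against 251, 233 and 189 (log2 fold change 2.33, SE 0.20, edgeR adjusted p = 1.85e-05). In the granule-like nuclei *Astn2* was the most even of these over the pools.

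The 10 genes with the smallest p and the same direction in every pool were, beside these, *Lhfp* (log2 fold change 3.60), *Pld5* (3.70), *Zfp521* (3.55), *Olfm3* (2.45), *Tmem163* (2.90), *Meis1* (4.10) and *Plcb4* (2.79). Their roles are mixed: *Zfp521* and *Meis1* are transcription factors (*Meis1* too entered the test through the granule-like sums alone), *Tmem163* transports zinc into synaptic vesicles and *Plcb4* is a phospholipase C of metabotropic glutamate signalling. Since the 10 genes were picked by p and direction, their higher level in every pool is a description. The smallest ratio between the lowest granule-like and the highest dentate value was that of *Plcb4*, at 290, 169 and 430 against 67.0, 26.2 and 33.3. Among these 3 pools the sums of Stress-nIL-1R1-/- were the highest for all 10 genes. Sums are led by the deepest nuclei, and in nuclei under 5000 UMIs the order changed for some genes. *Plcb4* (749, against 808 and 1016) and *Meis1* (226, against 269 and 397) were then lowest in Stress-nIL-1R1-/-. *Chn2* (2335, against 2039 and 2473) lay between, and *Grm4* and *Lhfp* were still highest.

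**Figure D2:**
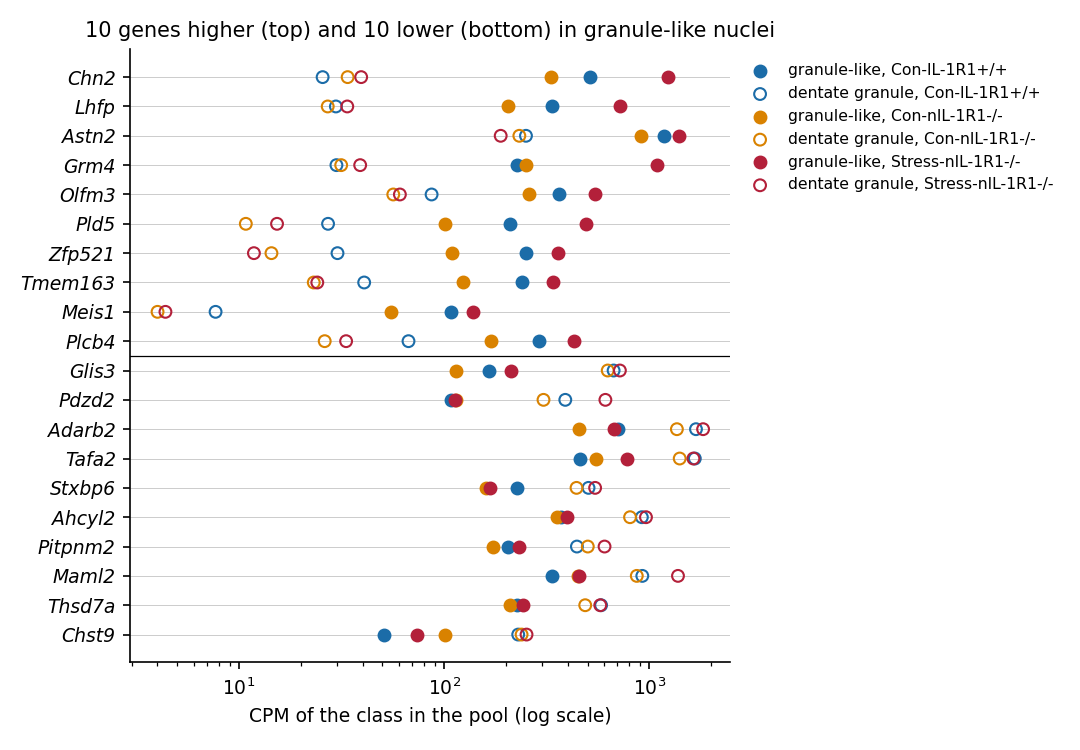
CPM (x axis, log scale) of the 10 genes higher and the 10 lower with the smallest p, in granule-like nuclei (filled) and dentate granule nuclei (open) of 3 pools. The 20 genes were picked by p and by having the same direction in every pool. The gap between filled and open points is thus a description. *Chn2* ranges from 334 to 1235 against 25.6 to 39.4.

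Of 26 genes known from cerebellar granule neurons and not used by the rule, 14 could be tested. Of these 5 were higher (against 2.21% of all genes tested) and 0 lower (against 1.61%). Their median log2 fold change was 0.77, against -0.01 over all genes tested. Without *Pax6*, whose dentate sums were all under the filter, 4 of 13 were higher and the median was 0.43. *Chn2* alone passed without the Con-IL-1R1+/+ pool, and 3 of the genes in each of the fits that lost a sublibrary (1 or 4) together with a pool. Without the Stress-nIL-1R1-/- pool 2 of the genes, *Nfia* and *Nfib*, were lower and the median was 0.43. With no filter *Nfia* and *Slc17a7* were lower, and *Slc17a7* also against all other *Syt1* nuclei. *Nfib* was lower without the nuclei that meet the dentate rule. *Reln* encodes the secreted protein reelin and was at 267, 151 and 647 against 47.9, 35.2 and 39.8 (log2 fold change 2.89, SE 0.30, edgeR adjusted p = 5.48e-05). *Etv1*, a transcription factor of maturing granule neurons, was at 148, 142 and 207 against 46.1, 52.1 and 53.4 (1.66, SE 0.22, edgeR adjusted p = 0.00055). Both genes were higher in every pool. *Cadps2*, a protein of vesicle release, was at 1193, 357 and 706 against 220, 230 and 205 (1.63, SE 0.26, edgeR adjusted p = 0.00244). *Pax6*, a transcription factor of granule neuron precursors that mature granule neurons keep, had 13 UMIs in 12 nuclei, with a log2 fold change of 4.23 (SE 0.80, edgeR adjusted p = 0.00712). Since every dentate sum of *Pax6* was under the filter, it entered the test through the granule-like sums alone and its call is given as a description.

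The other tested members did not pass. *Neurod1*, which drives granule neuron differentiation in both regions, had a log2 fold change of 1.22 (edgeR adjusted p = 0.36), and *Gabrd*, the δ subunit that joins α6 outside synapses, 1.12 (0.21). *Kcnd2*, an A-type potassium channel and the most abundant gene of the list, was at 5005, 3744 and 4529 against 3290.2, 3068 and 3259 (0.43, edgeR adjusted p = 0.248). *Rbfox3* (NeuN) was at 0.28 (edgeR adjusted p = 0.549), and *Slc17a7*, the vesicular glutamate transporter VGLUT1, at -1.05 (0.102).

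Some genes that define cerebellar tissue were rare or not found. *En1* and *Barhl1* were at 0, and *En2* had 4 UMIs, *Cbln1* 3, *Barhl2* 3, *Zic2* 7, *Zic4* 6 and *Cbln3* 9. *Cbln3* was at 14.1 CPM in granule-like nuclei, 0.221 in dentate granule nuclei and 0.175 in all nuclei outside the rule. All 12 forebrain transcription factors of the list had UMIs. Of the 8 tested, only *Zbtb20*, a factor of hippocampal neurons, was lower (log2 fold change -0.89, edgeR adjusted p = 0.00823).

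Sums are led by the deepest nuclei, so the share of nuclei with at least 1 UMI was also taken after thinning each nucleus to 1000 UMIs, which kept 68 granule-like, 3795 dentate granule and 38929 other nuclei (the others include dentate granule nuclei). *Chn2* was found in 61.8% of granule-like nuclei (49.2 to 73.3), 3.35% of dentate granule nuclei and 4.27% of all others. *Grm4* was found in 54.4%, 2.11% and 5.62%, and *Reln* in 50.0%, 2.40% and 6.72%. *Etv1* was found in 22.1%, 4.14% and 4.23%, and *Pax6* in 5.88%, 0.0791% and 0.177%. For each of these genes the share was above that of both other classes, which did not hold for the whole cerebellar list. *Nfia* (35.3% against 42.9%), *Nfib* (36.8% against 46.5%), *Nfix* (19.1% against 23.7%) and *Kcnk9* (5.88% against 7.33%) lay below dentate granule nuclei. *Cbln1*, *Cbln3*, *En1* and *Barhl1* were found in 0 of 68 granule-like nuclei.

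*Glis3* and *Stxbp6*, dentate genes, lay below both other classes at this depth. *Glis3* was found in 4.41% of granule-like nuclei (0.919 to 12.4), 51.3% of dentate granule nuclei and 16.5% of others. *Stxbp6*, which binds SNARE proteins, was found in 0 of 68, against 39.5% and 15.3%. *Dock10* was found in 23.5% (14.1 to 35.4), 61.9% and 27.8%, so its interval holds the share of the others. *Maml2* and *Rfx3* were found in 32.4% and 30.9% of granule-like nuclei, below dentate granule nuclei (66.9% and 63.0%) but not below the others (29.3% and 27.9%). *Plk5* was found in 8.82%, 6.51% and 2.53%. *Prox1*, which chose the dentate nuclei, was found in 5.88% of the granule-like nuclei and 7.60% of all others, so its share was close to that of all nuclei outside the rule. *Slc17a7* was found in 7.35%, 7.25% and 6.80%, and the myelin gene *Mbp* in 14.7%, 18.1% and 16.3%.

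**Figure D3:**
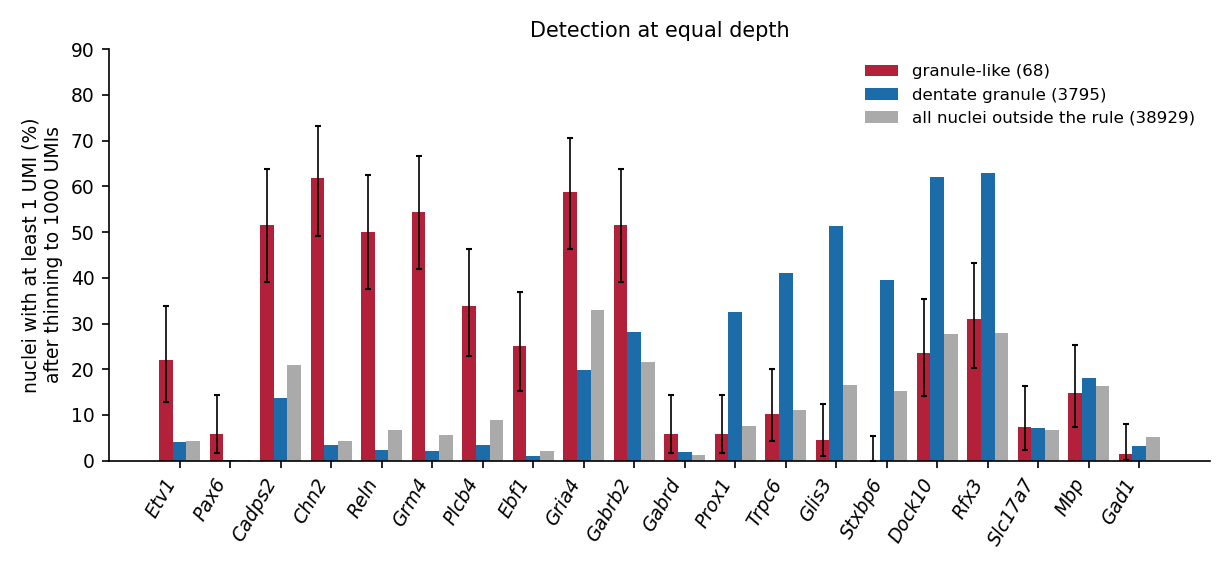
Nuclei with at least 1 UMI of a gene (y axis, %) after thinning to 1000 UMIs, in 68 granule-like, 3795 dentate granule and 38929 nuclei outside the rule; lines are exact 95% intervals of the granule-like share. *Chn2* (61.8%), *Grm4* (54.4%) and *Reln* (50.0%) stand above both other classes, *Glis3* (4.41%) and *Stxbp6* (0) below.

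Of 10 dentate granule genes outside both rules, 9 were tested, and 7 were lower in the granule-like nuclei, 0 higher (median log2 fold change -1.37). Of all genes tested 1.61% were lower and 2.21% higher. None passed without the Con-IL-1R1+/+ pool (edgeR; median -1.33, 8 lower at an unadjusted p under 0.05), 1 passed without sublibrary 1 and that pool, and 5 without sublibrary 4 and Con-nIL-1R1-/-. The comparison nuclei were themselves picked by dentate genes. Against all other *Syt1* nuclei 0 of the 9 passed (edgeR; median -0.20), with 1 lower and 1 higher at an unadjusted p under 0.05. *Glis3*, a zinc finger factor, was at 165, 114 and 212 against 670, 627 and 719 (log2 fold change -2.09, SE 0.20, edgeR adjusted p = 2.87e-05). *Dock10*, a Rac activator, was at 386, 434 and 301 against 885, 703 and 1063 (-1.25, SE 0.21, edgeR adjusted p = 0.00352). *Rfx3*, a factor of ciliary genes, was at 477, 544 and 286 against 1049.9, 1040.4 and 1092 (-1.34, SE 0.21, edgeR adjusted p = 0.00176). *Maml2*, a co-activator of Notch, *Stxbp6*, *Dgkh* and *Npnt* were lower too, with log2 fold changes of -1.37, -1.46, -0.98 and -1.73. *Calb1* (-1.40, edgeR adjusted p = 0.113) and *Plk5* (-0.15, 0.936) did not pass, and *Tdo2* was at 0.

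Over all genes, the 10 with the smallest p in this direction were *Glis3*, *Pdzd2* (-1.93), *Adarb2* (-1.46), *Tafa2* (-1.45), *Stxbp6* (-1.46), *Ahcyl2* (-1.29), *Pitpnm2* (-1.38), *Maml2* (-1.37), *Thsd7a* (-1.30) and *Chst9* (-1.69). Of these, 3 are on the dentate list. Their levels in granule-like nuclei stood nearer to those of all nuclei outside the rule than to the dentate ones. *Thsd7a* was at 242 in granule-like, 278 in all other and 495 in dentate granule nuclei, and *Tafa2* at 587, 809 and 1462. The comparison was also made with all other nuclei that carry *Syt1* and at most 1 UMI of *Gad1* and *Gad2*. All 10 lower genes then kept a negative log2 fold change (-1.11 to -0.20) but only 2 passed (edgeR). All 10 genes of the higher group passed, but both groups were picked with these same granule-like nuclei.

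The nuclei ranged from 505 to 85890 UMIs, with a median of 3529, and they were not alike over this range. A split at 5000 UMIs, chosen after the values had been seen, put 44 nuclei below (median 2050.5) and 27 above (median 13786). *Chn2*, *Grm4* and *Lhfp* were not used by the rule but are among the 10 higher genes with the smallest p above. They were thus picked for being high in these nuclei, and their levels are a description. Their summed UMIs had a median of 52.6 per 10000 in the shallower nuclei and 7.89 in the deeper. All 71 nuclei had at least 1 UMI of the 3 genes. In dentate granule nuclei the median was 0, both below and above 5000 UMIs, and 68.6% of them had none.

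The dentate genes *Glis3*, *Maml2* and *Stxbp6* are likewise among the 10 lower genes with the smallest p. Their summed UMIs had a median of 4.29 per 10000 in the shallower and 4.88 in the deeper granule-like nuclei. In dentate granule nuclei of the same depths the medians were 30.03 and 23.1. None of these 3 genes was found in 18 of the 44 shallower nuclei. Of the 27 deeper nuclei, 11 also met the dentate rule, with *Prox1* at 141 and *Glis3* at 278 CPM, between the other granule-like nuclei (31.1 and 50.9) and dentate granule nuclei (261 and 661). No shallower nucleus met it. No doublets were removed, and whether the deeper nuclei hold RNA of more than 1 nucleus was not tested.

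**Figure D4:**
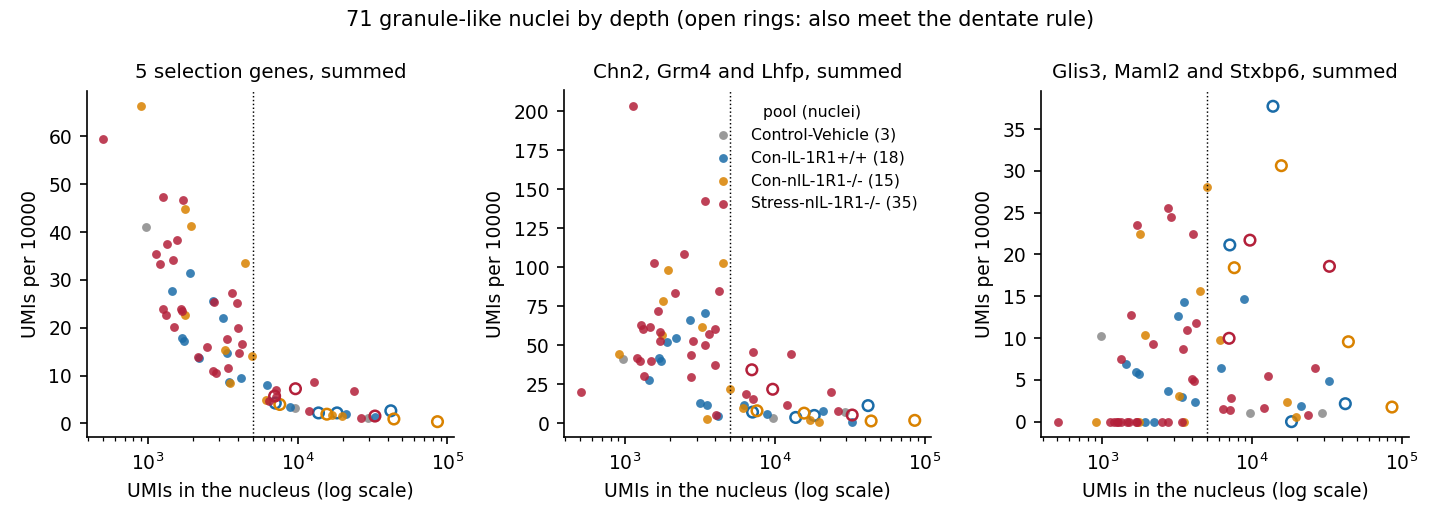
Each of the 71 granule-like nuclei by its UMIs (x axis, log scale) and UMIs per 10000 of the 5 selection genes, of *Chn2*, *Grm4* and *Lhfp*, and of *Glis3*, *Maml2* and *Stxbp6* (y axes); colours are pools, open rings the 11 nuclei that also meet the dentate rule, and the dotted line is at 5000 UMIs. The first panel falls with depth by construction of the rule; the middle one falls from a median of 52.6 to 7.89.

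The shallower nuclei were also read by pool. *Chn2* stood at 2039 CPM in 10 nuclei of Con-IL-1R1+/+, 2473 in 8 of Con-nIL-1R1-/- and 2335 in 25 of Stress-nIL-1R1-/-. *Grin2c* stood at 346, 309 and 226 there. *Glis3* stood at 38.5, 177 and 0. *Grm4* stood at 654, 1854 and 2613 in the same order, and *Reln* at 577, 839 and 1359. The pool with most such nuclei thus lay between the other two in *Chn2*, was lowest in *Grin2c* and *Glis3*, and was highest in *Grm4* and *Reln*. Con-nIL-1R1-/- had fewer than 10 of these nuclei and did not enter the test, so the fit rests on 2 pools (35 granule-like nuclei). In it 293 genes were higher and 448 lower than in dentate granule nuclei under 5000 UMIs, of 5128 tested. All 20 named genes passed, with *Grm4* at a log2 fold change of 6.25. These genes were picked in the fit on all depths, which holds the same nuclei, so their passing is a description.

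Of the receptor subunits tested against dentate granule nuclei 3 of 24 passed (12.5%, against 3.82% of all genes). Of 15 GABA-A subunits 11 were tested, and *Gabra4* (log2 fold change -0.93, edgeR adjusted p = 0.0283) and *Gabrb1* (-0.69, 0.035) were lower, both being subunits of dentate and other forebrain neurons. *Gabrb2*, at 502 against 341 CPM, did not pass (0.43, edgeR adjusted p = 0.317). Of 7 NMDA subunits 4 were tested and 0 passed, and *Grin2c*, which the label names, was at 75.3 against 1.86. Of 9 AMPA and kainate subunits *Gria4* alone passed, higher at 579, 457 and 894 against 344, 327 and 314 (0.89, SE 0.20, edgeR adjusted p = 0.0217).

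In the 8 tested leak and A-type potassium channels 0 passed. *Kcnk3* (TASK-1), known from cerebellar granule neurons, had a log2 fold change of 1.67 (edgeR adjusted p = 0.105), with 24 of its 32 UMIs in Stress-nIL-1R1-/-, and its partner *Kcnk9* (TASK-3) -0.29 (0.815). Of 11 genes of IL-1 and glucocorticoid signalling 9 were tested. *Il1rap*, the accessory chain of the IL-1 receptor, was lower at 148, 283 and 153 against 469, 440 and 480 (-1.29, SE 0.23, edgeR adjusted p = 0.00405). *Il1r1* itself was at -1.68 (edgeR adjusted p = 0.319) and 2 of the 3 pools carry the deletion. Corticosteroid receptors *Nr3c1* (0.38) and *Nr3c2* (-0.29) and the responsive genes *Fkbp5* (-0.38), *Sgk1* (0.21) and *Zbtb16* (-0.55) did not pass.

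Defining Purkinje cell genes were not found in the granule-like nuclei: *Pcp2*, *Ppp1r17*, *Car8* and *Gng13* were at 0 of 637248 UMIs, *Slc1a6* had 1, and *Itpr1*, the most abundant of the 7, was at 373 against 383 CPM in dentate granule nuclei. Of 6 genes of cerebellar interneurons *Tfap2a*, *Tfap2b* and *Pax2* were at 0. Of 5 genes of Bergmann glia *Slc1a3* alone had UMIs, at 70.6 against 54.9. Of 5 unipolar brush cell genes *Eomes* had 3 UMIs, *Otx2* 4 and *Lmx1a* 0. *Eomes* was at 4.71 CPM, against 0 in dentate granule nuclei and 0.0784 in all nuclei outside the rule. *Otx2* was at 6.28, against 0.473 and 0.742, and neither gene was tested. *Plcb4*, described above, was higher.

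Among genes of the thalamus and midbrain, *Ebf1* was higher at 85.2, 64.0 and 390 against 34.5, 12.7 and 7.004 (log2 fold change 3.11, SE 0.58, edgeR adjusted p = 0.00618). The call was lost with DESeq2, without the Con-IL-1R1+/+ pool and with no limit on *Gad1* and *Gad2*. The other 4 genes tested did not pass, *Slc17a6* (VGLUT2) at 17.3 against 5.05 CPM among them, and the median of the list was 1.17. *Rora* passed with *Ebf1* in nuclei under 5000 UMIs, after thinning, and without nuclei that meet the dentate rule. Oligodendrocyte genes (5 tested, 0 passed) summed to 485 CPM against 599, microglial genes (4 tested, 0 passed) to 83.2 against 49.7. Astrocyte genes summed to 599 against 793, and *Slc4a4*, the most abundant, was lower (-0.75, edgeR adjusted p = 0.0389), while *Aqp4* and *Gja1* were at 0. Markers of the choroid plexus (5 of 6 genes) and of meningeal fibroblasts (6 of 8) were largely at 0. Of 5 endothelial genes 2 were at 0, and the list summed to 20.4 CPM against 17.7 in dentate granule nuclei. *Slc32a1* and *Lhx6* of inhibitory neurons were at 0 as well, and *Adarb2* was lower. Of 4 CA1 genes tested 1 was higher, *Man1a* (0.91, edgeR adjusted p = 0.0287). Of 6 CA3 genes tested 1 was lower, *Cpne4* (-0.95, edgeR adjusted p = 0.00904). Over all genes tested, 2.21% were higher and 1.61% lower.

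**Figure D5:**
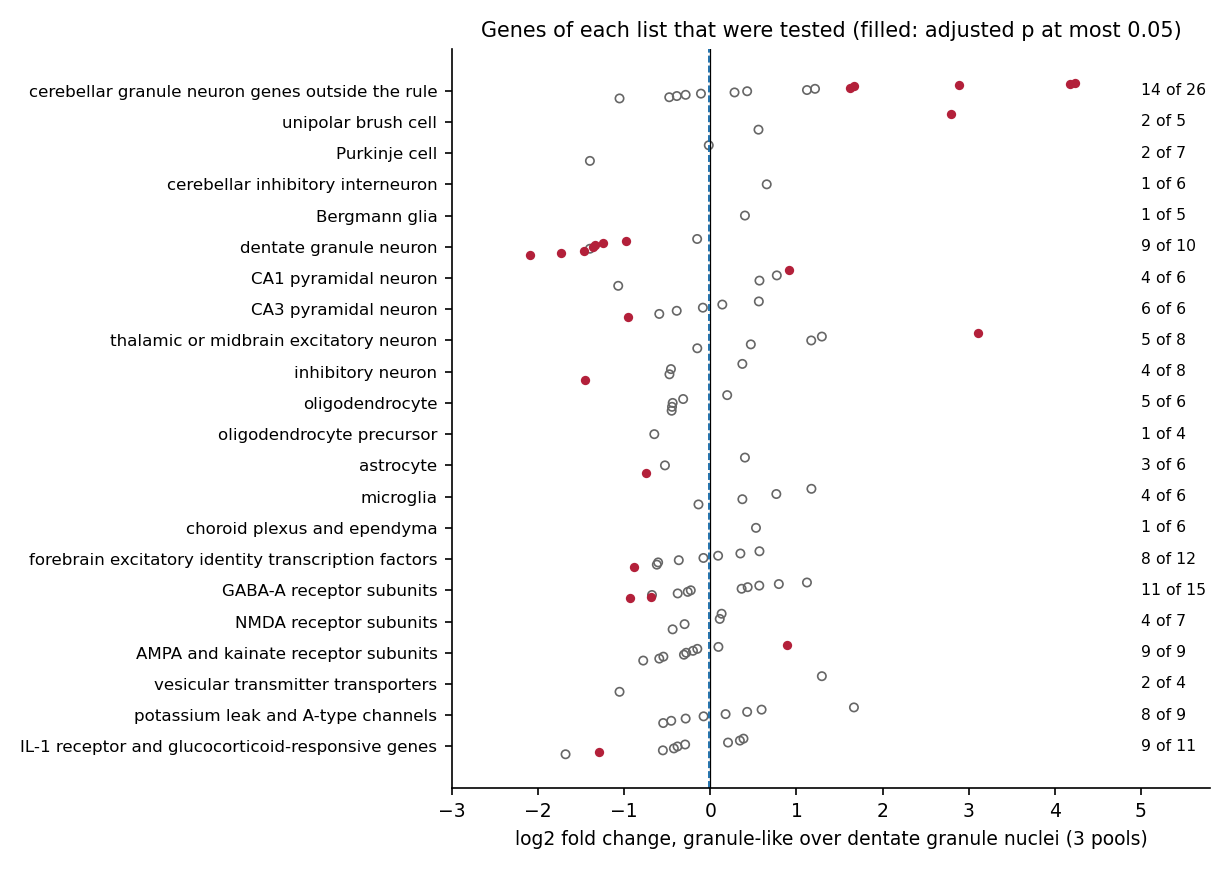
Log2 fold change of granule-like over dentate granule nuclei (x axis) for each tested gene of 22 lists; filled points passed an adjusted p of 0.05, numbers give tested of listed genes, and the dashed line is the median of all genes tested (-0.01). Of the cerebellar granule genes 5 of 14 tested are filled and lie to the right (4 of 13 without *Pax6*), and of the dentate granule genes 7 of 9 tested are filled and lie to the left. Of all genes tested 2.21% were higher and 1.61% lower. The dentate granule nuclei were themselves picked by dentate genes.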

How the data were processed

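Nuclei of mouse hippocampus were read in 8 pools of 3 mice. The authors deposited whole-number UMI counts for each gene in each nucleus, made with the Parse Biosciences pipeline (version not given in the sources used here) from reads aligned to mm39, without scaling; the submitters' processing notes name Seurat 4.1.1. The condition of a nucleus came from the deposited sample names. Nuclei over 20% mitochondrial UMIs (516 of 57350) were left out, which left 5858 to 8474 nuclei and 7534594 to 58081835 UMIs per pool; no doublets were removed. UMIs were summed by class and pool, and classes compared in pools with at least 10 granule-like nuclei by edgeR 4.0.16 (R 4.3.3; TMM, filterByExpr, quasi-likelihood test, pool as a block, Benjamini-Hochberg adjusted p over all genes tested). The fit was first run on simulated counts with the same spread for all genes and no difference between pools. That run does not cover the uneven nuclei and pools of these data. DESeq2 1.42.0, other forms of the rule, thinning to 1000 UMIs and leaving out pools or sublibraries were alternatives. Nuclei of 1 pool are not replicates, so p-values for genes rest on 3 pools (2 in some alternatives) and shares carry exact intervals, which cover counting error only. Named genes were the marker and list genes and, in each direction, the 10 with the smallest p that went the same way in every pool. The rule, the members and the 27 gene lists were chosen with earlier results of these data known. Some genes of these lists are not reported here.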

Additional observations from a re-analysis of the deposited data

Results flagged for a closer look

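The share of Fat2 Gabra6 granule-like nuclei went opposite ways with RSD in the 2 genotypes. Stress minus control was -0.238 percentage points in IL-1R1+/+ (18 nuclei of 7554 in control and 0 of 5858 under stress) and 0.349 in nIL-1R1-/- (15 of 6511 and 35 of 6045). The difference was not tested, since each condition is 1 pool of 3 mice. In none of the 3 pools with at least 10 granule-like nuclei did 1 of the 4 sublibraries stand apart in share by Dixon's criterion. The highest ratio of gap to range was 0.729 (95% critical value for 4 samples). The criterion looks for 1 outlier, so it cannot show that sublibraries agree. In sublibraries 1 to 4 the shares were 0.499%, 0.0515%, 0.0499% and 0.387% in Con-IL-1R1+/+. They were 0.183%, 0.0606%, 0.181% and 0.511% in Con-nIL-1R1-/-, and 0.706%, 0.278%, 0.128% and 1.21% in Stress-nIL-1R1-/-.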

How the results depend on the processing

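The rule sets how many nuclei are found. A sum of at least 2 gave 117 nuclei, at least 5 gave 29, at least 3 genes found 46, thinning to 1000 UMIs 18, and nuclei under 5000 UMIs alone, an alternative chosen after seeing the data, 44; leaving out 1 sublibrary gave 36 to 65. The share in Stress-nIL-1R1-/- was then 0.943%, 0.281% and 0.232% (sum of 2, sum of 5, thinned), and 0.373% to 0.736% with 1 sublibrary left out. It was the highest of the 8 pools in all 14 settings. Con-nIL-1R1-/- ran from 0.0484% (thinned) to 0.384% (no limit on *Gad1* and *Gad2*) and was 0.142% without sublibrary 4. Con-IL-1R1+/+ ran from 0.0460% (thinned) to 0.331% (sum of 2) and was 0.156% without sublibrary 1. With a sum of 2, Control-Vehicle had 9 nuclei, Stress-PLX5622 3 and Stress-IL-1R1+/+ 1. With a sum of 5, Control-Vehicle had 0. The mean of stress minus control turned to -0.0221 percentage points with no limit on *Gad1* and *Gad2* (exact permutation p = 0.75). In the nIL-1R1-/- pair the difference ran from 0.184 (thinned) to 0.605 (sum of 2). It was 0.212 with no such limit and 0.231 without sublibrary 4. In the IL-1R1+/+ pair it ran from -0.314 (sum of 2) to -0.0460 (thinned).

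Without the Con-IL-1R1+/+ pool edgeR called 18 genes higher, 16 of them shared with the 195, and 0 lower, with 435 and 415 at an unadjusted p under 0.05; of the cerebellar granule genes only *Chn2* then passed, and of the dentate granule genes none (8 at an unadjusted p under 0.05). This fit has fewer pools, and DESeq2 was not run on it. Counts of higher and lower genes were 66 and 58 with no limit on *Gad1* and *Gad2*, 294 and 415 without nuclei that meet the dentate rule, 293 and 448 under 5000 UMIs (2 pools), 117 and 135 against other *Syt1* nuclei, and 73 to 221 and 4 to 166 with 1 sublibrary left out (fewest without sublibrary 1, a fit that also lost the Con-IL-1R1+/+ pool and in which 3 of 12 cerebellar and 1 of 9 dentate granule genes passed; that without sublibrary 4 lost Con-nIL-1R1-/-). Lower genes numbered 245 without Stress-nIL-1R1-/-, 223 with a sum of 2, 280 after thinning (also chosen after seeing the data) and 380 with no filter. The causes were not tested. DESeq2 called 167 and 96. All 10 named higher genes passed in each of the 20 alternatives (9 without *Meis1*, which entered the test through the granule-like sums alone). The 10 named lower genes kept their direction but missed the threshold in 31 of 200 cases. These alternatives share nuclei with the fit that picked the named genes, so their passing is a description and no further support. A sum of at least 5, or the rule applied after thinning, left 1 pool with at least 10 nuclei, so no gene test could be fitted. The nuclei of both PLX5622 pools were the shallowest (medians of 598 and 628 UMIs), which limits what their zeros show.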
